A study of Mus musculus with 39 samples.

Results

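*Dppa2*, *Dppa3*, *Dppa4*, *Dppa5a* and *Rex2* are 5 genes of the pluripotent mouse embryo whose transcripts are found in the early epiblast, and they were followed through postimplantation development in *Stat3* WT and *Stat3* null epiblasts. The 4 *Dppa* genes were taken by their shared name (developmental pluripotency associated) and *Rex2* was taken with them. *Dppa5a* and *Rex2* were chosen by measured values, their lower counts in E6.5 null than in E5.5 WT epiblasts and in E7.5 null than in E6.5 WT epiblasts, so their epiblast values, between stages and between genotypes, are given as a description without a test. All 5 symbols were found once in each count table, among 47643 genes listed.

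The epiblasts were dissected singly from embryos of CD1 *Stat3* heterozygous intercrosses at embryonic day (E) 5.5, 6.5 and 7.5, and each library was 1 epiblast. There were 2 WT and 4 null libraries at E5.5, 9 WT and 8 null at E6.5, and 9 WT and 3 null at E7.5. The null embryos were homozygous for an allele in which exons 20 to 22 of *Stat3* are replaced by a neomycin resistance cassette in every cell, so reads from the other exons still count towards *Stat3*. A second table held 4 lines of epiblast stem cells (EpiSC), cells grown from the postimplantation epiblast in FGF2, activin A and a Wnt inhibitor: null lines 2 and 6 and WT lines 8 and 13. The lines were sequenced with another kit, so epiblast and EpiSC levels are set side by side only. The labels do not say which embryos were littermates, so the p-values measure the spread between these libraries.

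Epiblast libraries held 22941210 to 79013960 gene counts and EpiSC libraries 63445877 to 127583699, so that 3 counts, taken here as the limit that a count of 0 allows, were worth 0.0405 to 0.129 CPM (counts scaled to a common library size) in an epiblast. Intervals and limits of this kind cover counting error only. Mean *Stat3* was lower in the null group at every stage (16.9 against 45.2 CPM at E5.5, 4.401 against 13.4 at E6.5 and 1.34 against 13.5 at E7.5) and in EpiSC lines (3.33 against 20.5), and the difference passed the test at E7.5 and in the lines. At E6.5 the first 3 WT and the first 3 null libraries held over 40000000 counts and the other 11 held fewer. Markers of the epiblast and of its neighbours set 3 libraries apart. E5.5 null 1 had 24 counts of *Pou5f1*, which encodes the core pluripotency factor OCT4 (0.662 CPM, against 99.3 to 236 in the other 3 nulls), no count of *Nanog*, and 277 CPM of *Elf5*, a factor of the extraembryonic ectoderm. In E6.5 null 1 the 10 extraembryonic ectoderm markers summed to 1098 CPM, and in the other 7 nulls to at most 67.9. E7.5 WT 3 had the highest sum of 6 epiblast markers of its group, 1254 CPM, and only 0.669 CPM of *Cdx2*, a posterior gene that was at 27.9 CPM or more in the other 8. Results that rest on these 3 libraries are given with and without them.

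DPPA2 and DPPA4 carry a SAP domain, bind DNA as a heterodimer at CpG-rich promoters, keep a set of developmental and germline promoters free of DNA methylation, and stand upstream of *Dux* and the genes of the 2-cell embryo in embryonic stem cells. DPPA3, also called Stella or PGC7, is abundant in oocytes, the preimplantation embryo and primordial germ cells, and restrains UHRF1, the protein that brings the maintenance methyltransferase DNMT1 to replicated DNA. DPPA5A, also called ESG1, is a small protein with a KH domain, a fold that binds RNA. *Rex2* encodes a zinc finger protein and is not *Rex1*, whose current symbol is *Zfp42*. Transcripts of this group are known from the preimplantation epiblast and from embryonic stem cells, and epiblast cells lose most of them as pluripotency passes from the naive to the primed state.

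On GRCm38 with the GENCODE vM21 annotation, *Dppa2* (ENSMUSG00000072419.4) lies at chr16:48303908-48319723 and *Dppa4* (ENSMUSG00000058550.14) at chr16:48283733-48294237, both on the plus strand and 9.671 kb apart. *Dppa3* (ENSMUSG00000046323.8) lies at chr6:122626410-122630272 on the plus strand, *Dppa5a* (ENSMUSG00000060461.5) at chr9:78367052-78368177 on the minus strand and *Rex2* (ENSMUSG00000067919.8) at chr4:147021850-147060794 on the plus strand. All 5 are annotated as protein coding. Each has relatives elsewhere in the genome that are nearly the same letter for letter, and reads from such stretches may be counted on either gene. How the authors' counting treated them is not given in the sources used here.

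The stretches below show how close the copies are. Each pair gives 90 bases of the member's transcript, taken inside the coding part of 1 exon where the pair differs most, and the same stretch of a relative, 5′ to 3′, with the bases that differ in capitals. *Dppa2* (chr16:48311575-48311664, plus strand) stands beside the processed pseudogene *Gm9788* (chr19:41459846-41459935, plus), with 4 differences. *Dppa3* (chr6:122628577-122628666, plus) stands beside *Dppa3-ps* (chrX:37625922-37626011, minus), with 3.
Dppa2: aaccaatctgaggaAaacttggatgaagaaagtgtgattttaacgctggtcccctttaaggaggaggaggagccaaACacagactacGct
Gm9788: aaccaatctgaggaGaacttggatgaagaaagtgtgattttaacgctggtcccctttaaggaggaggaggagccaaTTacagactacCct
Dppa3: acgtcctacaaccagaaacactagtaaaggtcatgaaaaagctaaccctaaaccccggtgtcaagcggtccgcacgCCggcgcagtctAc
Dppa3-ps: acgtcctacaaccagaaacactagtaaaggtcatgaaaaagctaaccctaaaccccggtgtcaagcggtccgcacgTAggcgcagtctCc

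*Dppa4* (chr16:48287878-48287967, plus) stands beside the pseudogene *Gm14058* (chr2:122215241-122215330, minus), again with 3 differences. *Dppa5a* (chr9:78367738-78367827, minus) stands beside the pseudogene *Gm6083* (chr5:29538344-29538433, plus), with 5. *Rex2* (chr4:147057283-147057372, plus) stands beside *Zfp600* (chr4:146194990-146195079, plus), an intact zinc finger gene of the same chromosome, with 2.
Dppa4: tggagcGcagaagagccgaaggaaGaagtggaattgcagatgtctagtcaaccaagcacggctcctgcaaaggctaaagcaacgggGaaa
Gm14058: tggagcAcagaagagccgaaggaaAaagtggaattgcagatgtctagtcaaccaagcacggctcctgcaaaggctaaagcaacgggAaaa
Dppa5a: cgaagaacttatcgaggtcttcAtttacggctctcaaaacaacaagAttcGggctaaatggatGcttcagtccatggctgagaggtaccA
Gm6083: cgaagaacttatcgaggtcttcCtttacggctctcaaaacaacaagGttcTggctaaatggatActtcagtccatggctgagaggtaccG
Rex2: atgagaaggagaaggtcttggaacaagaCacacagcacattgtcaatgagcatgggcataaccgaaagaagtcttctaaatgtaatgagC
Zfp600: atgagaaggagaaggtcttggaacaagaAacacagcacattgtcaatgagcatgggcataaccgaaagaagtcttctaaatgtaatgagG

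Over longer matches *Gm9788* was 99.338% identical to *Dppa2* across 906 bases, *Gm14058* 98.912% identical to *Dppa4* across 735 and *Dppa3-ps* 98.226% identical to *Dppa3* across 451. *Zfp600* and *2610305D13Rik* were 99.476% and 99.302% identical to the shorter *Rex2* transcript over all its 573 bases. To see what a short read could tell apart, every run of 75 bases in the main transcript of each member was looked up in all other genes' transcripts. The share of runs found letter for letter in another gene was 83.5% for *Rex2*, 25.7% for *Dppa2*, 23.7% for *Dppa4*, 19.4% for *Dppa5a* and 4.1% for *Dppa3*. *Rex2* counts are therefore uncertain, because 73.8% of its runs also occur in *Zfp600* and 46.3% in *Gm13242*, and the other 4 genes are told apart over most of their length. *Dppa5b* and *Dppa5c*, 2 annotated relatives of *Dppa5a*, had no entry among the genes counted.

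**Figure D1:**
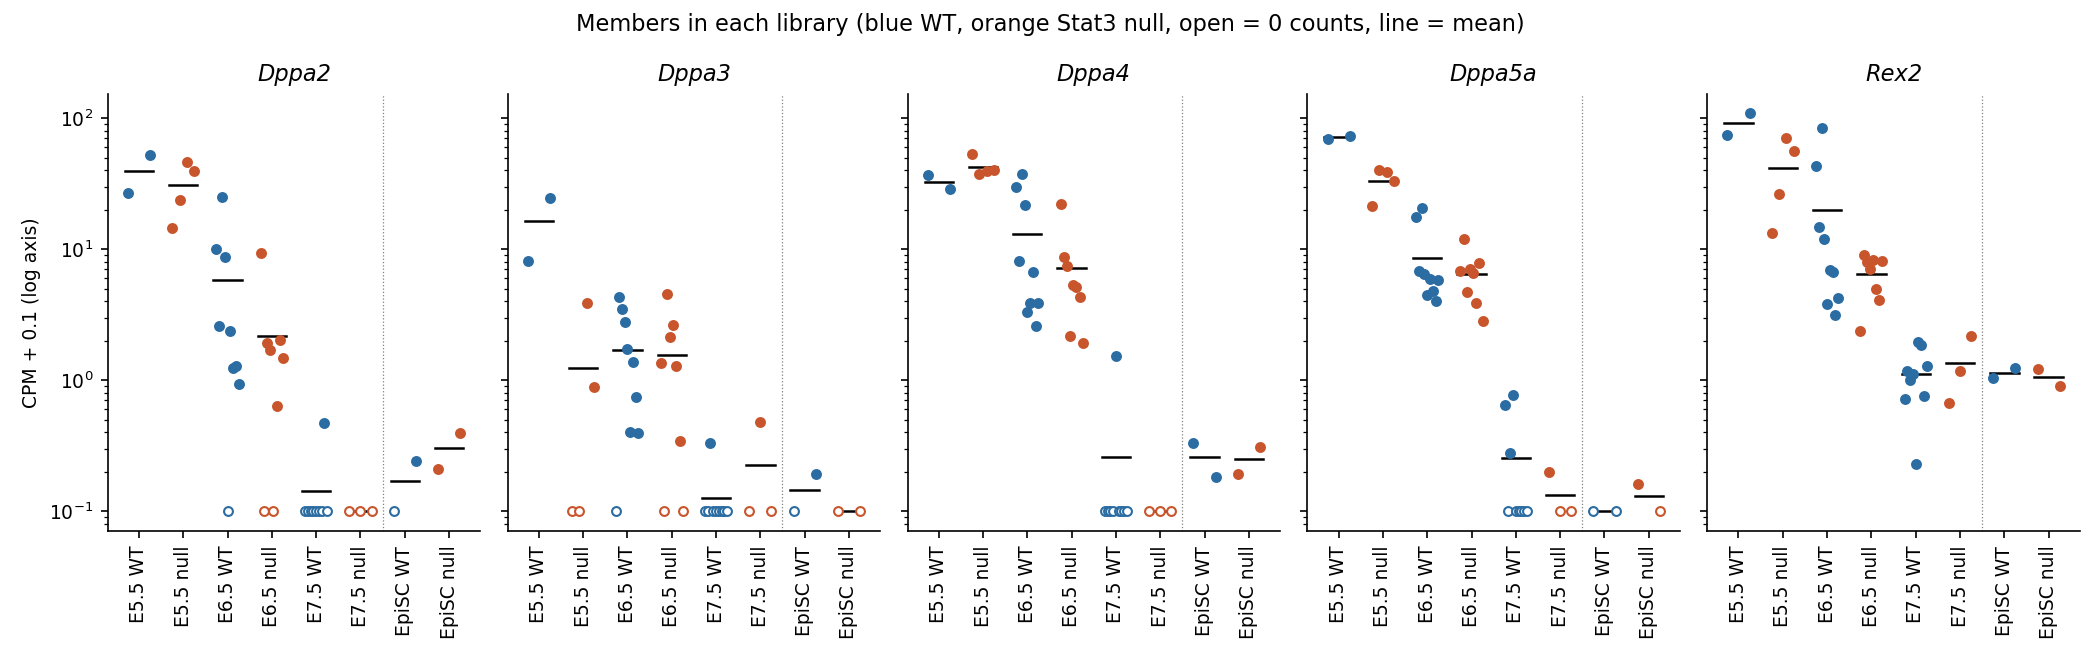
Level of each gene in every library, in CPM plus 0.1 on a log axis, by stage and genotype (blue WT, orange null, open symbols 0 counts, line at the group mean), with the EpiSC lines to the right of the dotted line. All 5 genes have their highest library at E5.5, spread widely at E6.5 and lie at or near the floor at E7.5, except for *Rex2*, which keeps a mean of about 1 CPM.

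The order of levels by stage was the same for *Dppa2*, *Dppa4*, *Dppa5a* and *Rex2*: both E5.5 groups had higher means than both E6.5 groups, and those had higher means than both E7.5 groups. *Dppa3* departed from it, since only its E5.5 WT group stood above the rest. Per kilobase of exon (RPKM), which allows levels of different genes to be compared, *Dppa5a* was the most abundant of the 5 in E5.5 WT epiblasts with a mean of 115 RPKM. *Rex2* followed with 21.0, *Dppa4* with 19.7, *Dppa3* with 18.2 and *Dppa2* with 16.1 RPKM. In E5.5 null epiblasts the means were 53.6 RPKM for *Dppa5a*, 25.6 for *Dppa4*, 12.6 for *Dppa2*, 9.48 for *Rex2* and 1.28 for *Dppa3*. These are bulk samples, so fewer cells that hold a transcript and less transcript per cell cannot be told apart.

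*Dppa2* and *Dppa4*, the partners of the heterodimer, were at or near 0 in the epiblast by E7.5. *Dppa4* counted 36.7 and 28.7 CPM in the 2 E5.5 WT epiblasts. The 9 E6.5 WT epiblasts ran from 2.49 CPM through a median of 6.62 to 37.1. At E7.5 the WT count was 0 in 8 of 9 libraries and 1.44 CPM (45 counts) in WT 5. Every E6.5 WT library thus lay above every E7.5 WT library, whereas the E5.5 and E6.5 WT ranges overlapped.

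In null epiblasts *Dppa4* was 53.1, 37.4, 39.6 and 40.3 CPM at E5.5, a narrow range whose highest value is that of the library with almost no *Pou5f1*. The 8 E6.5 nulls ran from 1.84 through a median of 5.12 to 22.2 CPM. All 3 E7.5 nulls had a count of 0. No null range overlapped that of the next stage.

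*Dppa2* counted 26.9 and 52.1 CPM in E5.5 WT and 14.3, 23.6, 46.2 and 39.5 CPM in E5.5 null epiblasts. At E6.5 WT libraries ran from 0 through a median of 2.26 to 25.0 CPM, and nulls from 0 through 1.49 to 9.27. At E7.5 it was at 0 in all 3 nulls and in 8 of 9 WT libraries, with 12 counts (0.375 CPM) in WT 8. Within each genotype the E5.5 and E6.5 ranges did not overlap, and both E6.5 groups reached down to 0 as the E7.5 groups did.

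Both genes were called lower at E7.5 than at E6.5 in WT epiblasts. The log2 fold change was -6.95 ± 1.27 (SE) for *Dppa2* and -6.28 ± 1.16 for *Dppa4*, with edgeR quasi-likelihood adjusted p of 0.000517 and 0.000658. Of all 17191 genes tested, 3.09% were called lower at E7.5 by the same rule, a log2 change beyond 1 with an adjusted p under 0.05. *Dppa2* reached the filter on low counts through 8 E6.5 and 1 E7.5 library and *Dppa4* through all 9 E6.5 and 1 E7.5 library, so the direction was largely fixed by which genes the filter kept and is not supported by the call. Both were also called without the filter. *Dppa3* was below the filter and was not tested. Without E7.5 WT 3 both were still called, at -6.77 and -6.09 (adjusted p 0.000712 and 0.000787).

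In null epiblasts *Dppa4* was called lower at each step. From E5.5 to E6.5 its log2 fold change was -2.61 ± 0.52, a 6.10-fold difference (edgeR adjusted p 0.0155), where 0.757% of all genes were called lower. Without the 2 null libraries set apart by their markers it was -2.98 (adjusted p 0.00125), and with all 35 epiblast libraries in 1 fit the call was lost (0.0698). From E6.5 to E7.5 it went from a mean of 7.07 CPM to counts of 0 in all 3 libraries, at least 93.3-fold lower when set against the mean level of 3 counts in an E7.5 null library (edgeR adjusted p 0.0265), where 0.036% of all genes were called lower. *Dppa4* passed the low-count filter there in all 8 E6.5 and no E7.5 library, so its direction at this step was fixed by the filter, and it was called without the filter as well. The call for the second step is thin: it was lost without E6.5 null 5 or null 8 (adjusted p 0.0598 and 0.0578) and without E7.5 null 1, 2 or 3 (0.124, 0.143 and 0.103), and held without E6.5 null 1 (0.0154).

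*Dppa2* in the nulls came close to the threshold at the first step. Its E5.5 to E6.5 log2 fold change was -3.91 ± 1.11 (edgeR adjusted p 0.0691), and without the 2 libraries set apart by their markers it was -5.12 (adjusted p 0.0105). E6.5 null 1 held 9.27 CPM and the next highest null 1.92, and leaving out that library alone brought the adjusted p to 0.0124, as leaving out E6.5 null 2, at 0 CPM, brought it to 0.0464. From E6.5 to E7.5 all 3 nulls were at 0, at least 27.3-fold lower than the E6.5 null mean, with an edgeR adjusted p of 0.355. DESeq2 gave adjusted p of 0.0059 and 0.00264 for the same steps. At the second step *Dppa2* passed the low-count filter in 6 E6.5 and no E7.5 null libraries. Its direction there was fixed by the filter and is not supported by either p.

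In WT epiblasts none of the 3 genes tested passed from E5.5 to E6.5, where 2.63% of all genes were called lower. The log2 fold changes were -2.78 ± 1.28 for *Dppa2*, -3.31 ± 1.06 for *Dppa3* and -1.34 ± 0.90 for *Dppa4*, with edgeR adjusted p of 0.229, 0.0715 and 0.420. The unadjusted p was under 0.05 for *Dppa3* alone (0.0083). With only 2 E5.5 WT libraries the outcome moved with the method: DESeq2 called *Dppa3* (adjusted p 0.0306), and so did edgeR without E6.5 WT 1 or WT 3 (0.0221 and 0.0478). With sample quality weights in limma all 3 were called, with adjusted p of 0.0006 for *Dppa2*, 0.000743 for *Dppa3* and 0.00113 for *Dppa4*. The other tissues in the libraries moved with this step: the 14 visceral endoderm markers, all detected, summed to 5621 and 7118 CPM in the E5.5 WT libraries, and with 13 or 14 detected to a median of 177 CPM in E6.5 WT. The 10 extraembryonic ectoderm markers summed to 47.2 and 425 CPM at E5.5 and to 10.02 to 26.1 at E6.5. In nulls the visceral endoderm sum ran from 27.3 to 11676 CPM at E5.5 and from 135 to 6790 at E6.5. The lowest null at both stages was null 1, a library set apart by its markers. Without null 1 the lowest sum was 7074 CPM at E5.5 and 328 CPM at E6.5. The part of these other tissues in the results was not tested.

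The level at E6.5 differed widely between embryos of 1 genotype, and 3 WT libraries carried most of both transcripts. WT 3, WT 1 and WT 4 held 37.1, 29.5 and 21.6 CPM of *Dppa4*, and the next held 8.06. The same 3 libraries held 25.0, 10.01 and 8.66 CPM of *Dppa2*, and the next held 2.48. They were also the 3 WT libraries with the highest sum of 14 visceral endoderm markers, at 5876, 1633 and 875 CPM, where the lowest 5 lay between 66.6 and 177. Among the nulls the order was different, since the 3 highest visceral endoderm sums (6790 CPM in null 3, 4620 in null 4 and 4251 in null 8) came with 7.38, 2.08 and 1.84 CPM of *Dppa4*. The 6 mesoderm and streak markers summed to 175, 116 and 124 CPM in WT 3, 1 and 4, to 102 in WT 2, and to 364 to 622 in WT 5 to 9. In null 1, the highest null for both genes, they summed to 553 CPM. Null 1 is also the E6.5 library set apart by its extraembryonic ectoderm markers. In WT libraries over and under 40000000 counts *Dppa4* averaged 24.9 and 6.92 CPM and *Dppa2* 12.5 and 2.34. In nulls these means were 12.7 and 3.67, and 3.70 and 1.09 CPM. The part of visceral endoderm transcripts, streak markers or depth in the levels of the 2 genes was not tested.

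**Figure D2:**
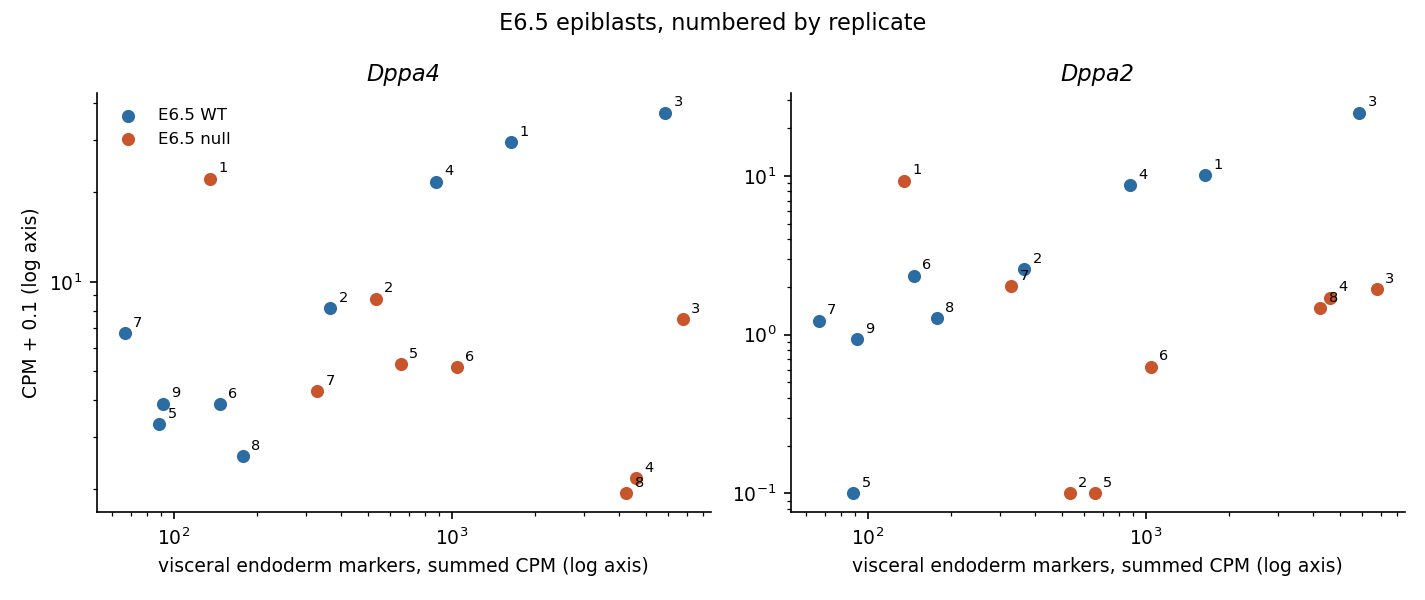
Summed CPM of 14 visceral endoderm markers (log axis) against *Dppa4* and *Dppa2* (CPM plus 0.1, log axis) in the 17 E6.5 libraries, numbered by replicate, blue WT and orange null. WT 3, 1 and 4 are highest on both axes among WT libraries, while null 1, with the highest *Dppa4* and *Dppa2* of the nulls, has a visceral endoderm sum of 135 CPM. Null 1 is the library set apart by its extraembryonic ectoderm markers.

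The genotypes were not told apart for *Dppa2* or *Dppa4* at any stage. At E5.5 the null against WT log2 fold change was -0.34 ± 0.49 for *Dppa2* and 0.39 ± 0.24 for *Dppa4*, and at E6.5 it was -1.46 ± 1.08 and -0.85 ± 0.60 (edgeR adjusted p 0.999 and 0.999, then 0.823 and 0.802). All 4 E5.5 nulls had more *Dppa4* than either WT, by an exact two-sided permutation test p = 0.133, which is the smallest value that 4 libraries against 2 can give. At E6.5 the exact p was 0.267 for *Dppa2* and 0.356 for *Dppa4*. Leaving out E6.5 null 1 moved the E6.5 differences to -2.45 and -1.37 (edgeR adjusted p 0.649 and 0.612). At E7.5 neither gene passed the low-count filter of the edgeR fit, the exact p was 1 for each, and both were at 0 in every null.

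*Dppa3* was the only gene of the 5 whose high level was confined, among the 6 epiblast groups, to a single group. The 2 E5.5 WT epiblasts held 8.02 and 24.4 CPM. The 4 E5.5 nulls held 0, 0, 3.78 and 0.784 CPM. The E6.5 WT epiblasts ran from 0 through a median of 1.28 to 4.23 CPM and the E6.5 nulls from 0 through 1.21 to 4.48. At E7.5, 8 of 9 WT libraries had no count and WT 3 had 9 counts (0.232 CPM), and the nulls had 0, 0.376 and 0 CPM.

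Both E5.5 WT libraries lay above every other epiblast library for *Dppa3*, but the group is 2 embryos and they differ widely from each other. The E5.5 null against WT difference was -3.81 ± 1.89 on the log2 scale (edgeR p 0.0884, adjusted p 0.999) and the exact p was 0.133. Without E5.5 null 1 it was -3.39. At E6.5 the difference was -0.12 ± 1.04 (adjusted p 0.993) and it changed sign when null 2, 7 or 8 or WT 2 or 3 was left out. In null epiblasts the level did not change detectably from E5.5 to E6.5 (0.32 ± 1.68, edgeR adjusted p 0.960) or from E6.5 to E7.5 (-3.51 ± 2.16, 0.784). The 8 germ cell markers, listed because *Dppa3* is also known from primordial germ cells, summed to 151 and 81.1 CPM in E5.5 WT epiblasts, with 5 and 7 detected, and to 59.6 to 291 CPM in E5.5 nulls, with 5 or 6 detected. At E6.5 the sums were 43.4 to 69.7 CPM in WT and 57.5 to 302 in nulls. At both stages the highest null was null 1, a library set apart by its markers. The next highest null held 131 CPM at E5.5 and 96.7 CPM at E6.5. Of the 8, *Prdm14* had no count in any E5.5 or E6.5 epiblast. The part of germ cells in the *Dppa3* levels was not tested.

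*Dppa5a* gave the steadiest picture. It counted 69.8 and 72.7 CPM in E5.5 WT and 21.1, 39.9, 38.7 and 33.0 CPM in E5.5 null epiblasts. The E6.5 WT libraries ran from 3.93 through a median of 5.80 to 20.6 CPM and the E6.5 nulls from 2.74 through 6.59 to 11.9. At E7.5, 6 of 9 WT libraries and 2 of 3 nulls had no count, and the highest library, WT 4, had 0.67 CPM. Neighbouring stages did not overlap within either genotype, and the E5.5 WT and E5.5 null groups did not overlap each other.

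From E5.5 to E6.5 *Dppa5a* was 8.40-fold lower in WT (log2 fold change -3.07 ± 0.49) and its log2 fold change in nulls was -2.41 ± 0.34. From E6.5 to E7.5 it was 53.5-fold lower in WT (-5.74 ± 0.89), and in nulls it went from 6.35 to 0.0332 CPM. These are descriptions, as are the 2 contrasts that brought it to notice: E6.5 null against E5.5 WT, where it was 11.3-fold lower, and E7.5 null against E6.5 WT, where the means were 0.0332 and 8.41 CPM.

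The null against WT difference of *Dppa5a* at E5.5 was -1.09 ± 0.27 on the log2 scale, from means of 33.2 ± 8.60 CPM (SD, n = 4) and 71.2 ± 2.07 (SD, n = 2). Without E5.5 null 1 the difference was -0.93. At E6.5 it was -0.39 ± 0.39 with overlapping groups. No p is given for these differences, because the E5.5 WT and E6.5 null libraries were among those that brought the gene to notice.

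The near-identical relatives of *Dppa5a* held few reads. The 4 processed pseudogenes that match it (*Gm15310*, *Gm5250*, *Gm6083* and *Gm6798*) had epiblast group means of 0.132 CPM at most. *Pigp*, an enzyme subunit gene of glycosylphosphatidylinositol synthesis with a *Dppa5a*-like stretch in its annotated transcript, had 1.17 to 5.11 CPM in epiblast groups. Counting all genes that share 75-base runs with *Dppa5a*, other than *Pigp*, left its differences between stages nearly the same (-3.06 and -5.19 in WT, -2.39 and -6.92 in nulls). With *Pigp* included in the sum of near-identical genes they were -2.56 and -1.20 in WT and -1.71 and -1.44 in nulls.

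*Rex2* varied widely among E6.5 WT embryos. It counted 73.7 and 109 CPM in E5.5 WT and 13.1, 26.1, 70.2 and 55.6 CPM in E5.5 null epiblasts. At E6.5 it ran from 3.02 through a median of 6.88 to 84.7 CPM in WT and from 2.25 through 7.39 to 8.92 in nulls. At E7.5 it ran from 0.128 through 1.0 to 1.87 CPM in WT, and the nulls held 0.573, 1.07 and 2.09 CPM. It was counted in all 12 E7.5 libraries, which none of the other 4 genes was, and it was the only one of the 5 above the low-count filter for the E7.5 genotype test.

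From E5.5 to E6.5 *Rex2* was 4.60-fold lower in WT (log2 fold change -2.20 ± 1.06) and its log2 fold change in nulls was -2.72 ± 0.42. From E6.5 to E7.5 it was 19.2-fold lower in WT (-4.26 ± 0.71) and 5.09-fold lower in nulls (-2.35 ± 0.64). In the contrasts that brought it to notice it was 14.5-fold lower in E6.5 null than in E5.5 WT (-3.85) and its log2 fold change was -3.97 in E7.5 null against E6.5 WT.

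The largest null against WT difference of *Rex2* was at E6.5, -1.63 ± 0.61 on the log2 scale, although the group medians were 7.39 CPM in nulls and 6.88 in WT. The means, 6.36 ± 2.38 CPM (SD, n = 8) and 19.8 ± 27.3 (SD, n = 9), differed because WT 3 and WT 1 held 84.7 and 42.9 CPM. Both belong to the 6 libraries with over 40000000 counts, and among those the difference was -2.89 ± 0.76. In the 11 libraries with fewer counts it was 0.08 ± 0.33, from WT and null means of 6.03 and 6.37 CPM. The difference therefore did not hold within the shallower libraries. The E5.5 difference was -1.13 ± 0.62, with no overlap between the groups, and -0.84 without E5.5 null 1. At E7.5 it was 0.31 ± 0.70. As for *Dppa5a*, these differences rest on libraries that brought the gene to notice and have no p here.

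Of the 5 intact genes that share *Rex2* sequence over the most 75-base runs, 4 showed the same order of stages by their means. In E5.5 WT and null epiblasts *Zfp600* averaged 60.1 and 28.1 CPM, *Gm13242* 60.6 and 29.3, *Gm13145* 28.6 and 10.6 and *2610305D13Rik* 69.3 and 48.9. At E7.5 the WT and null means were 0.428 and 0.444 CPM for *Zfp600*, 0.478 and 0.81 for *Gm13242*, 0.689 and 0.786 for *Gm13145* and 6.23 and 8.55 for *2610305D13Rik*. For *2610305D13Rik* the order rests on the mean, since its median was 3.51 CPM in E6.5 WT, where the highest library held 110 CPM, and 6.57 in E7.5 WT. *Gm13247* departed from that order, with a mean of 8.78 CPM in E5.5 WT and of 15.7 in E6.5 WT. Of all counts on *Rex2* and the 7 genes that share 75-base runs with it, *Rex2* itself took 21.4%, 10.7% and 2.23% in WT epiblasts, from the earliest stage to the latest, and 17.9%, 5.33% and 2.09% in nulls.

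Summed over those 8 genes, the differences between stages were smaller: -1.20 and -1.998 on the log2 scale in WT, against -2.20 and -4.26 for *Rex2* alone, and -0.97 and -0.998 in nulls, against -2.72 and -2.35. The E6.5 null against WT difference became -0.62 and the E7.5 difference 0.40. *Gm13225* had the highest mean of the 8 in WT epiblasts at each stage, 100 CPM at E5.5 and 36.4 at E7.5, and only 0.1% of *Rex2* runs occur in it.

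**Figure D3:**
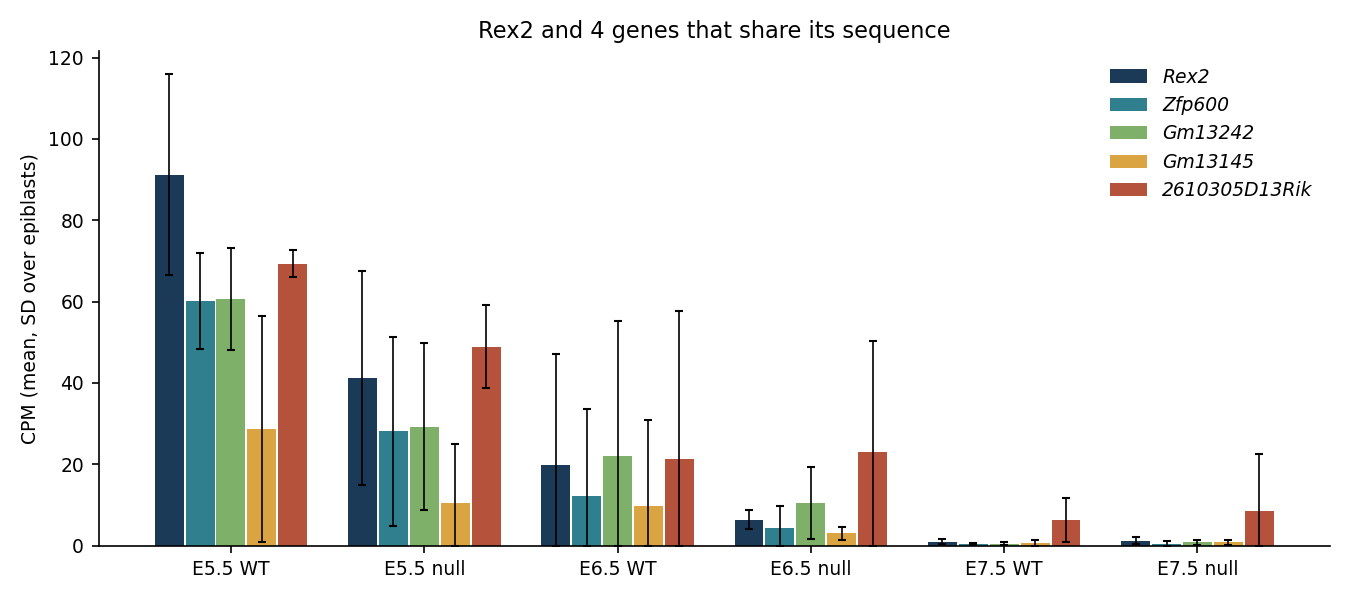
Mean CPM (bars, axis from 0; error bars 1 SD, cut at 0) of *Rex2* and 4 genes with which it shares sequence, in the 6 epiblast groups. Each gene has its highest mean in E5.5 WT epiblasts, and *2610305D13Rik* alone keeps a mean above 6 CPM at E7.5.

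For the same relatives of the other genes the values were low. *Gm9788* averaged 7.38 CPM in E5.5 WT and 7.11 in E5.5 null epiblasts, 1.61 and 1.19 at E6.5 and 0.0206 and 0 at E7.5, which is the order of stages of *Dppa2*. *Gm14058* averaged 4.67 and 3.15 CPM at E5.5 and 1.39 and 0.59 at E6.5, and had no count at E7.5, as *Dppa4* had in 11 of 12 libraries. *Dppa3-ps* did not exceed a mean of 0.226 CPM. With its sharing genes included, a sum added after the data were seen, *Dppa2* was called lower at both steps in nulls (edgeR adjusted p 0.0049 and 0.0347). In the reported fits 0.757% and 0.036% of all genes were called lower at these steps. *Dppa2* and its sharing genes were all at 0 CPM in E7.5 nulls. The direction of the second call was thus fixed by the low-count filter and is not supported by the call.

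*Dppa2*, *Dppa3* and *Dppa4*, the members taken by name, were not called between the genotypes at E5.5 or E6.5 and were below the low-count filter at E7.5. At E5.5, 0 of the 3 and 0% of 18690 genes were called by edgeR, with 467 genes at an unadjusted p under 0.05, and DESeq2 called 14 genes, none of the 3. At E6.5, 0 of the 3 and 0% of 17095 genes were called, with 1414 at an unadjusted p under 0.05, and DESeq2 called 18 genes, none of the 3. None of the 3 had an unadjusted edgeR p under 0.05 at these stages. At E7.5 edgeR called 1.17% of all genes. In 9 exact permutation tests, 1 for each of the 3 genes and stages, the lowest p was 0.133, where the smallest p the design allows was 0.133 at E5.5, 8.23e-05 at E6.5 and 0.00909 at E7.5.

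No change of the genotype difference between stages was called for *Dppa2*, *Dppa3* or *Dppa4*, which does not show that it stayed the same. For the change from E5.5 to E6.5, 0 of the 3 and 0.0166% of 24126 genes were called by edgeR, and for the change from E6.5 to E7.5, 0 of the 3 and 0.245%. None of the 3 had an unadjusted p under 0.05, and DESeq2 called none of them in either.

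**Figure D4:**
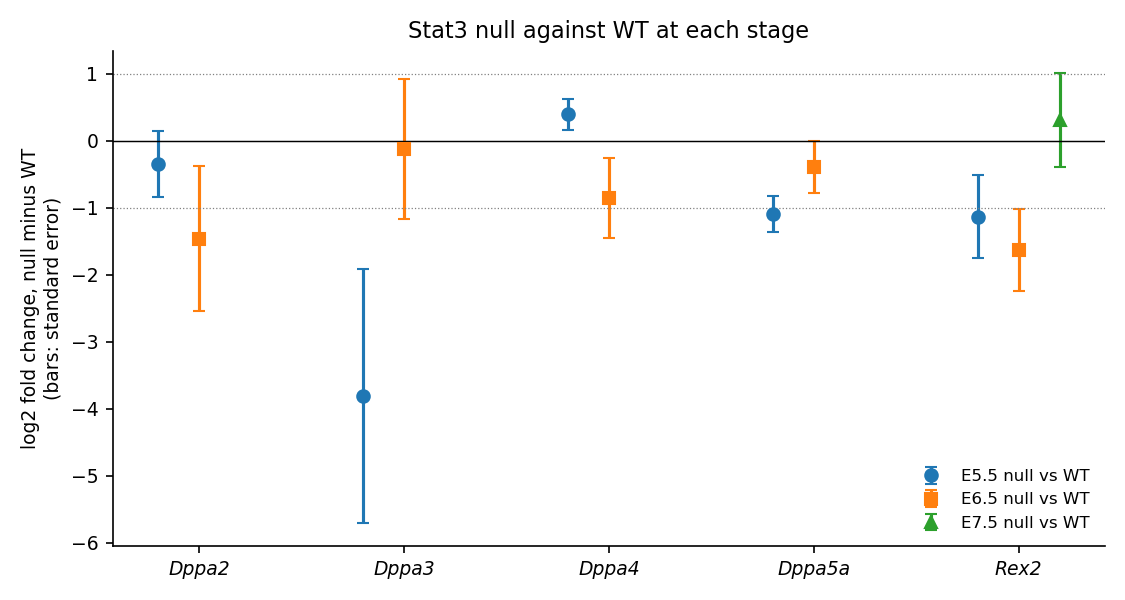
Null against WT log2 fold change with its standard error for each gene and stage from edgeR, with dotted lines at a change of 1 in either direction. At E5.5 and E6.5 most estimates lie below 0, and at E7.5 only *Rex2* passed the low-count filter. Those of *Dppa5a* and *Rex2* rest on libraries that brought these genes to notice, so they are no support for a shared direction.

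In the EpiSC lines all but *Rex2* were at or near 0. *Dppa2* counted 0.109 and 0.294 CPM in null lines 2 and 6 and 0.142 and 0 in WT lines 8 and 13. *Dppa4* counted 0.0937 and 0.207 CPM in null and 0.0813 and 0.234 in WT lines. *Dppa5a* was at 0.0625 CPM in null line 2 and at 0 in the other 3 lines, and *Dppa3* at 0.0915 CPM in WT line 8 and at 0 in the other 3. *Rex2* held 1.11 and 0.806 CPM in null and 1.14 and 0.935 in WT lines, beside means of 1.25 and 1.02 CPM in E7.5 null and WT epiblasts.

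None of the 3 genes tested in the lines was called, where 0.106% of all genes were. The null against WT log2 fold changes were 1.57 ± 1.42 for *Dppa2*, -0.06 ± 0.82 for *Dppa4* and -0.12 ± 0.35 for *Rex2* (edgeR adjusted p 0.847, 0.995 and 0.964), with no unadjusted p under 0.05 and no call by DESeq2. The lines kept their pluripotency markers: the 6 epiblast markers summed to 957 to 1176 CPM.

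The 4 *Dppa* transcripts were at or near 0 at E7.5 at different levels of epiblast markers. In WT epiblasts the sum of *Pou5f1*, *Nanog*, *Sox2*, *Otx2*, *Fgf5* and *Pou3f1* ran from 981 to 1315 CPM at E6.5 and from 290 through a median of 458 to 1254 at E7.5. From E6.5 to E7.5 in WT, 4 of the 6 were called lower (*Pou3f1*, *Fgf5*, *Nanog* and *Otx2*), by 1.21 to 2.35 on the log2 scale. That is less than the 6.28 of *Dppa4*. *Pou5f1* was also lower (-0.96, edgeR adjusted p 0.00371) but short of the log2 threshold of 1, and *Sox2* was at 0.02. In the 3 E7.5 nulls the sum was 898 to 1311 CPM, beside 490 to 1126 in the E6.5 nulls, and *Dppa2* and *Dppa4* were at 0 there too. The other markers at E7.5 differed between genotypes as well, with visceral endoderm sums of 420 to 4357 CPM in WT and 64.1 to 310 in nulls, and sums of 6 mesoderm and streak markers of 159 to 395 in WT and 436 to 725 in nulls. The 4 haemoglobin genes, markers of maternal blood, summed to 22.3 CPM at most in any epiblast.

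**Figure D5:**
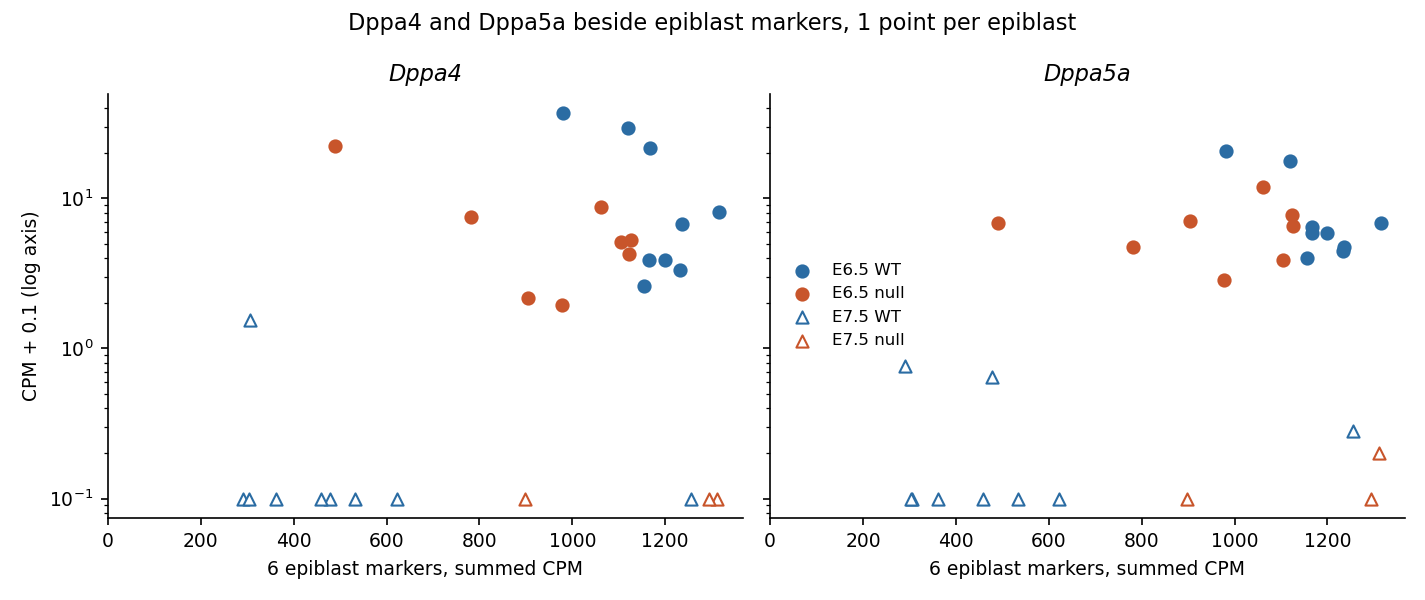
Summed CPM of 6 epiblast markers against *Dppa4* and *Dppa5a* (CPM plus 0.1, log axis) at E6.5 (circles) and E7.5 (triangles), blue WT and orange null. The 3 E7.5 null libraries have marker sums of 898 to 1311 CPM, inside or near the E6.5 range, and lie on the floor for *Dppa4*.

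Germline genes, which somatic cells silence by DNA methylation of their promoters, were taken as a fixed list beside *Dppa2* and *Dppa4*. Of 16, 9 were tested in WT from E6.5 to E7.5 and 8 were called lower, where 3.09% of all genes were. The 8 were *Tuba3a*, an alpha tubulin of testis (-5.65), *Syce1* and *Sycp3* of the synaptonemal complex (-4.14 and -1.91), *Mael*, *Mov10l1*, *Piwil2* and *Ddx4* of transposon silencing (-4.02, -3.51, -2.83 and -1.73) and *Tex19.1* (-1.91). The 7 not tested were too low. As for *Dppa4*, a gene kept through its E6.5 counts alone had to be higher there, so the count of 8 is not taken as support for the list's direction. Of the 8, *Tuba3a* was also below the low-count filter between genotypes at E7.5, and the others passed that filter. In WT from E5.5 to E6.5 *Tuba3a* was the 1 gene of 16 called lower (-1.996), where 2.63% of all genes were. In nulls *Piwil2* was the 1 of 15 at that step (-1.88), where 0.757% of all genes were called lower. From E6.5 to E7.5 in nulls *Tuba3a* was the 1 of 12, where 0.036% of all genes were called lower. *Tuba3a* was at 0 in all 3 E7.5 nulls, so its direction there was fixed by the low-count filter. No gene of the list was called between genotypes at E5.5 (16 tested), E6.5 (12) or E7.5 (8), with 0, 0 and 1 at an unadjusted edgeR p under 0.05 and 0, 0 and 1 called by DESeq2.

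The genes of the 2-cell embryo downstream of *Dux* were at or near 0. Of 16 listed (*Duxf3*, the *Zscan4*, *Tcstv* and *Usp17l* families and *Zfp352* among them) 14 were counted, no epiblast group had a mean over 0.416 CPM for any of them, and none passed the low-count filter in an epiblast comparison. The KH genes related to *Dppa5a* were low as well, with *Ooep* at 1.14 CPM or less and *Khdc3* at 0.492 or less in every group, and none of the 1 or 2 tested in a comparison was called by edgeR or DESeq2, nor had any an unadjusted edgeR p under 0.05. *Dppa1*, the other gene of the name in the table, had counts in 3 E5.5 libraries only.

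The listed genes of DNA methylation and its removal, among them *Uhrf1*, whose protein DPPA3 restrains, did not all keep their levels. *Uhrf1* averaged 429 to 496 CPM and *Dnmt1* 362 to 445 across the 6 epiblast groups, and neither was called at any step. In WT from E6.5 to E7.5, 4 of 8 genes of the list were called lower, where 3.09% of all genes were. These were *Dnmt3l* by 4.57, *Dnmt3b* by 1.41, *Tet1* by 1.17 and *Dnmt3a* by 1.10 on the log2 scale. *Tet2* was called higher (1.26), where 987 of 17191 genes were. In nulls from E5.5 to E6.5 *Dnmt3b* was called higher (1.13, edgeR adjusted p 0.0313), where 224 of 18352 genes were. *Dnmt3l*, a cofactor of the de novo enzymes, had the order of stages of *Dppa5a*: its WT means, from the earliest stage to the latest, were 166, 25.5 and 1.07 CPM and its null means 85.9, 21.9 and 1.59.

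Of 18 naive pluripotency companions, 7 of 15 tested were called lower and 2 higher in WT from E6.5 to E7.5, where 531 of all 17191 genes (3.09%) were called lower and 987 higher. The lower ones were *Gdf3*, a TGF-beta family ligand (-7.05), *Dnmt3l* (-4.57), the Nodal coreceptor gene *Tdgf1* (-4.36), *Utf1* (-2.69), *Zfp42* (-2.61), *L1td1* (-2.01) and *Fgf4* (-1.99), and the higher ones *Tbx3* (2.29) and *Klf4* (1.67). *Gdf3* passed the low-count filter mainly through its E6.5 counts, which largely fixed its direction. From E5.5 to E6.5 *Zfp42* was the 1 of 16 called in WT (-3.54), where 2.63% of all genes were called lower. In nulls none of 16 was called by edgeR at that step, where 0.757% of all genes were called lower. Of the 16, 7 had an unadjusted edgeR p under 0.05 and 4 were called by DESeq2. Between genotypes none was called by edgeR at E5.5, E6.5 or E7.5, with 1, 6 and 7 at an unadjusted p under 0.05 and 0, 0 and 5 called by DESeq2. Of all genes, 467 of 18690, 1414 of 17095 and 3874 of 19680 had such a p, and DESeq2 called 14, 18 and 985. Most of the 6 at E6.5 were higher in nulls, *Zfp42* (2.17) among them, and *Fgf4* was lower (-1.54). *Zfp42* held 57.7 CPM in E6.5 null 1, a library set apart, and at most 15.7 in the other nulls. At E7.5 the 7 went both ways.

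Among the genes within 100 kb of the 5, few were called. *Gdf3*, 16.3 kb from *Dppa3*, fell in WT from E6.5 to E7.5 from a mean of 6.89 to 0.0497 CPM (log2 fold change -7.05, edgeR adjusted p 2.19e-05). With so low an E7.5 mean, *Gdf3* passed the low-count filter mainly through its E6.5 counts, so its direction was largely fixed by the filter. *Nanog*, 77.2 kb from *Dppa3*, moved otherwise: it rose from E5.5 to E6.5 in WT (3.11) and fell from E6.5 to E7.5 (-1.21). *Slc2a3*, a glucose transporter gene 97.5 kb from *Dppa3*, rose at the second step in WT (1.96) and was lower in E7.5 nulls than in WT (-2.02). Near *Rex2*, *Gm13150* and *Gm26624* fell in WT from E6.5 to E7.5 (-3.33 and -1.65). No neighbour of *Dppa5a* was called in any comparison by edgeR, and *Dppa2* and *Dppa4* were each other's only called neighbour.

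The 5 genes differed in how closely they followed each other across the 35 epiblast libraries. Pearson's r of log2 CPM is given here as a description, since the libraries share stages, depth and the scaling. *Dppa4* and *Dppa5a* were closest, with r = 0.922, which put each among the 3 genes most like the other of 24083 ranked. Beside it *Dppa4* was most like *Rps4l* (0.938) and *Gm14139* (0.915), and *Dppa5a* most like *Tuba3a* (0.942) and *Gm2381* (0.933). *Dppa2* was most like *Zfp655* (0.862), *Dnase2a* (0.858) and *Trim6* (0.856), with its partner *Dppa4* at rank 11 (0.839). *Rex2* was most like *Gm13242* (0.933), which shares its sequence, and *Zfp936* (0.907) was also among its 3 most like genes. *Dppa3* stood farthest from the others, with r of 0.540 to 0.607, and was most like *Txnrd1* (0.83), *Pik3cd* (0.774) and *Ccng1* (0.742).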

How the data were processed

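Bulk RNA sequencing was performed on 35 single epiblasts and 4 EpiSC lines. Per the paper's methods, the authors aligned reads with HISAT2 to GRCm38/mm10 and deposited StringTie gene counts. The submitters' processing notes also name Trim Galore. The deposited values are whole-number counts without normalization, in 1 table for epiblasts and 1 for EpiSC lines. The annotation release, the strand setting and the treatment of multiply mapped reads are not given in the sources used here. Samples were grouped by the stage and genotype in their labels.

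The test on counts was the robust quasi-likelihood F-test of edgeR 4.0.16 under R 4.3.3 (scaling by TMM, filterByExpr with a count minimum of 10 and a total of 15, two-sided, Benjamini-Hochberg over all genes kept). Each fit held the 2 groups compared, except for the stage by genotype tests, which held all 35 epiblast libraries. A gene was called with an absolute log2 fold change over 1 and an adjusted p under 0.05. CPM and RPKM were computed on TMM library sizes, and log2 CPM with a prior count of 2. Exact permutation tests used scipy 1.17.1. Of the 47643 gene identifiers, 47224 matched GENCODE vM21, from which exon lengths, coordinates and sequences were taken. The steps were tested on simulated data with known fold changes. Alternatives were DESeq2 1.42.0, other scaling and filters, sample quality weights in limma 3.58.1, a replicate block and 1 fit over all epiblasts. Each library was also left out in turn, and near-identical copies were summed. Added after the data were seen were the sum over genes that share 75-base runs, the depth groups and leaving out libraries whose markers stood apart.

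The members, the gene lists and the tests were chosen with earlier results of these data known, and no p is given for *Dppa5a* and *Rex2* in epiblasts, whose libraries chose them. Genes were named by rule: the 5 members, their near-identical copies (95% identity or more over 50% or more of the member transcript and 200 bases), other *Dppa* symbols, tested genes within 100 kb, *Stat3*, genes of the fixed lists where called, and for each member the 3 genes with the highest correlation (1 of those for *Rex2* is not reported here). *Gm13225*, *Gm13242* and *Gm13247*, which share 75-base runs with *Rex2*, were named after their values were seen.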

Additional observations from a re-analysis of the deposited data

Results flagged for a closer look

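In 4 of 20 sets of member values tested, each from 1 group of 4 to 10 libraries, the highest or lowest library lay farther from the nearest other than Dixon's 95% limit allows, and chance alone sets off about 1 in 20 such tests. All 4 were in E7.5 WT epiblasts (9 libraries), where most counts were 0, so that a single library with counts takes the whole range. WT 8 was the highest for *Dppa2*, with 0.375 CPM and a gap to range ratio of 1. WT 3 was the highest for *Dppa3*, with 0.232 CPM and a ratio of 1, and it is the library whose epiblast and *Cdx2* markers stood apart. WT 5 was the highest for *Dppa4*, with 1.44 CPM and a ratio of 1, and the lowest for *Rex2*, with 0.128 CPM and a ratio of 0.55.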

How the results depend on the processing

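Of 951 values recomputed under the alternatives, 164 counts of called genes stayed within 1.5 times and 19 did not, and of the single-gene values 705 kept direction and side of the threshold, 8 lost the call, 15 gained it, 22 reversed and 18 moved by more than 1 SD. No alternative gave a called member between genotypes at any stage or in EpiSC lines. In WT from E6.5 to E7.5 at least 2 were called under every alternative run. In WT from E5.5 to E6.5, 0 were called in the reported fit, 1 by DESeq2, 3 with sample quality weights and 0 to 1 with a library left out. In nulls from E5.5 to E6.5, 1 was called in the reported fit, 2 by DESeq2, with quality weights, with sequence-sharing genes summed or without the libraries set apart, and 1 to 2 with a library left out. In nulls from E6.5 to E7.5, 1 was called in the reported fit, 2 by DESeq2 or with sequence-sharing genes summed, and 0 to 1 with a library left out. The cause of these changes was not tested.

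Reversed null against WT differences, all small beside their errors, were 0.20 for *Dppa2* at E5.5 without WT 2 (range with a library left out -0.74 to 0.20), 0.07, 0.04, 0.07, 0.20 and 0.10 for *Dppa3* at E6.5 without null 2, 7 or 8 or WT 2 or 3 (-0.63 to 0.20), 0.0695, 0.10 and 0.0826 for *Dppa3*, *Dppa5a* and *Rex2* in the E6.5 libraries under 40000000 counts, and -0.29 for *Rex2* at E7.5 without null 3 (-0.29 to 0.65). In EpiSC lines they were 0.0259, 0.0645, 0.38 and 0.88 for *Dppa4* (quality weights, summed genes, without null line 2, without WT line 13; range -0.75 to 0.88) and 0.55, 0.10 and 0.03 for *Rex2* (summed genes, without null line 6, without WT line 8; range -0.36 to 0.10). *Dppa3* in nulls from E5.5 to E6.5 became -0.0268 without the libraries set apart, -0.06 and -0.09 without E5.5 null 1 or 2 and -0.18 without E6.5 null 3 (-0.18 to 2.43).

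Same-numbered null and WT libraries of a stage were compared in their deviations from the group means. The correlations were 0.167 and 0.0173 at E5.5, 0.0219 to 0.152 at E6.5 and -0.174 to 0.0122 at E7.5. Differently numbered libraries were not compared, so whether equal numbers mark a shared litter or batch cannot be told. With the replicate number as a block, 0 members were called at both null steps (*Dppa4* adjusted p 0.230 and 0.359), without any other call changed, and the *Rex2* change in genotype difference from E5.5 to E6.5 reversed to 0.55. Counting error limits E7.5: a count of 0 there allows up to 3 counts, and *Dppa2*, *Dppa3*, *Dppa4* and *Dppa5a* were below the low-count filter of the edgeR test between genotypes.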
